A study of Caenorhabditis elegans with 12 samples.

Results

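RNA from whole Caenorhabditis elegans labelled sams-1 at day 7 (D7) was compared with RNA from wild-type animals at D7. The 6 libraries were chosen by their titles from the 12 of the series, 3 in each group, with replicate numbers 1, 3 and 5 in both. All 46925 genes of the files entered the comparison, and 12242 of them had enough reads to be tested. The other 6 libraries hold the same groups at D1 and were used only to ask whether the difference at D7 departed from that at D1.

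The wild-type group carries the genotype wild type and the treatment Control. The sams-1 group also carries the genotype wild type in its labels, with the treatment RNAi, whereas the study describes loss-of-function animals, sams-1(lof), with ok3033 given as the allele, so the way in which sams-1 was targeted cannot be settled from these sources. Animals of both groups fed on HT115, the Escherichia coli strain used to deliver RNAi, and the labels give no separate entry for age in days beyond the title. The protocols in the labels speak of young adults. The study describes the 3 libraries of each group as independent biological replicates, and the p-values measure the spread between them.

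sams-1 encodes a synthase of S-adenosylmethionine (SAM), the methyl donor for phosphatidylcholine, for histones and for RNA. Loss of sams-1 is known to limit phosphatidylcholine synthesis from phosphoethanolamine, to activate the lipogenic factor SBP-1 and to raise stearoyl-CoA desaturases of the fat-7 type, and such animals are small, lay few eggs and live long. The germ line, the intestine that makes its yolk, and the epidermis that makes the cuticle together account for much of the RNA of an adult hermaphrodite. A whole-animal comparison reads all of them at once.

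The gene in the label went against it. sams-1 (X:11965962-11969893, WBcel235) was at 13.02, 19.8 and 17.3 normalised counts (CPM, counts scaled to the effective library total) in the wild-type libraries and at 37.4, 75.4 and 53 CPM in the sams-1-labelled libraries, in the order of replicates 1, 3 and 5. Every library labelled sams-1 was above every wild-type library (log2 fold change 1.72, SE 0.27, adjusted p = 0.000318, edgeR). With libraries scaled on genes of the intestine the log2 fold change was -0.67. Reads were counted over the entire gene, so they include whatever sequence a deletion or an RNAi trigger leaves. The groups are named by their labels throughout.

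The wild-type libraries held between 6569831 and 6967830 counts and the libraries labelled sams-1 between 3939023 and 6020721. Genes with any count numbered 15531 to 15785 in wild type and 16672 to 17389 in the sams-1-labelled libraries. Wild-type libraries correlated with each other at 0.985 to 0.987 over genes on the log2 CPM scale, and those labelled sams-1 at 0.947 to 0.976, with replicate 3, the shallowest, in both of the lower values. Library pairs from different groups correlated at 0.832 to 0.86. Without replicate 3 labelled sams-1, the genes called below numbered 4453 higher and 2297 lower in place of 4093 and 2008.

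Expression differed for most of the genes tested. Of the 12242 genes tested, 4093 (33.4%) were higher and 2008 (16.4%) were lower in the sams-1-labelled libraries by a difference of 2-fold or more with a Benjamini-Hochberg adjusted p under 0.01. At the adjusted p alone, 4356 genes (35.6%) were higher and 3597 (29.4%) lower, and the gene lists below are counted by that rule and can be read against these shares. Where a list has a count of 0 by edgeR, it was also 0 at an unadjusted p below 0.05 and by DESeq2 and limma, unless other counts are given. The libraries of the groups did not overlap for 5182 genes (42.3%) that were higher and for 4555 (37.2%) that were lower. Genes called higher were mostly weakly expressed, with a median of 8.45 CPM and a median log2 fold change of 2.3 in size, and 2608 of them differed by at least 4-fold. Genes called lower were more abundant, with a median of 96.86 CPM and a median size of 1.31, and 88 of them differed by at least 4-fold. Of the genes tested, 2458 passed the filter on low counts only through the libraries labelled sams-1, and these had to differ if they were to be tested: 1965 of them were called higher.

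Over all genes tested the log2 fold change had a median of 0.13, which depended on the scaling. The TMM factors assume that most genes do not differ, and size factors of the DESeq2 kind moved the median by -0.04, library totals by 0.27 and upper-quartile factors by 0.45. When the summed counts of 25 genes of body wall muscle were held equal, the median moved by -1.41, with 1230 genes called higher and 6452 lower. Holding 17 intestine genes equal moved it by -2.39, with 310 called higher and 8084 lower. The share of higher among all called genes, 4093 against 2008, became 4962 against 619 under upper-quartile factors, and 4619 against 1064 under library totals. Every difference below is relative to the TMM scaling, and where a list or gene has the opposite sign under another scaling this stands beside it.

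**Figure D1:**
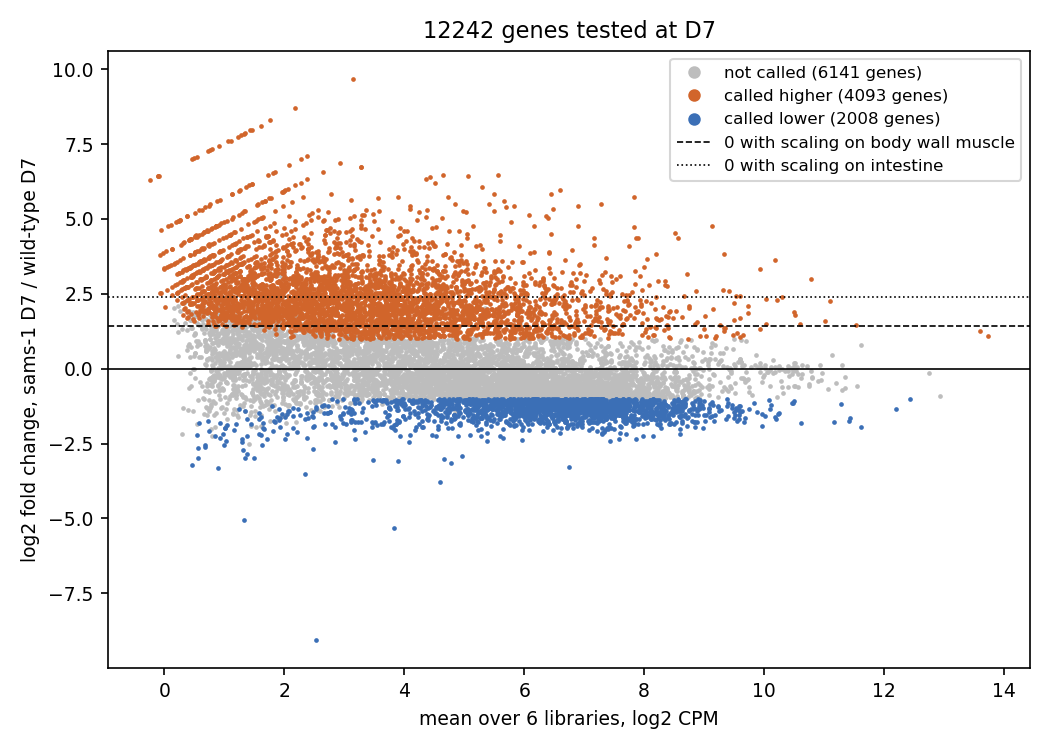
Log2 fold change of the libraries labelled sams-1 over wild type at D7 for each of the 12242 genes tested, against the mean log2 CPM over the 6 libraries. Orange points are the 4093 genes called higher, blue points the 2008 called lower and grey points the others, and the horizontal lines mark where 0 would lie if muscle or intestine genes were held equal. Genes called higher lie mostly at low and middling expression and reach larger fold changes than those called lower.

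Genes were ranked by fold change if called, above a mean of 10 CPM and with exons that overlap no other gene. They also had to have a symbol of letters and a number and no overlap between the groups. The largest increases were in cuticle collagens, a saposin-like gene and a filament gene. spp-27 (V:6556653-6557135), of the saposin-like family whose members act on lipids and bacterial membranes, was at 1.098, 0.165 and 0.323 CPM in wild type against 26.4, 87.8 and 34.4 CPM in the sams-1-labelled libraries (log2 fold change 6.47, SE 0.67, adjusted p = 2.57e-05). dpy-4 (IV:14985543-14986784), a collagen needed for normal body length, was at 2.196, 4.79 and 2.097 CPM in wild type against 278, 102 and 138 CPM (log2 fold change 5.83, SE 0.47, adjusted p = 9.05e-06). Both genes were nearly silent in every wild-type library, and replicate 3 of the libraries labelled sams-1 was the highest for spp-27 and the lowest for dpy-4. ifc-1 (V:2881393-2883753), an intermediate filament protein of the intestine, was at 0.471, 0.330 and 0.484 CPM against 21.1, 16.9 and 32.02 CPM (log2 fold change 5.70, SE 0.41, adjusted p = 7.21e-06). The other 9 of the 12 genes with the largest increases were all cuticle collagens, namely col-41, col-176, col-169, col-17, dpy-5, rol-6, col-144, col-168 and col-10, with log2 fold changes from 5.51 to 6.42.

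The largest decreases by the same ranking were of several kinds. Genes known only by sequence names were not ranked. ins-19 (II:3126037-3126441), an insulin-like peptide, was at 25.10, 25.6 and 32.7 CPM in wild type against 0.398, 0 and 1.42 CPM in the sams-1-labelled libraries (log2 fold change -5.31, SE 0.51, adjusted p = 1.8e-05). It was almost lost from all 3 of these libraries. snf-6, an acetylcholine transporter of muscle, fell from 55.5, 54.8 and 55.8 CPM to 8.35, 1.12 and 11.8 CPM, and par-4, the worm LKB1 kinase, fell from 86.9, 81.9 and 82.9 CPM to 20.3, 5.62 and 24.1 CPM. For both genes, and for sel-8, a co-factor of Notch signalling, at 69.96, 71.8 and 70.2 CPM against 7.95, 4.72 and 25.7 CPM, replicate 3 was the lowest of the libraries labelled sams-1. set-9, a SET domain protein that reads histone methylation, fell from 328, 281 and 355 CPM to 55.5, 52.4 and 81.9 CPM (log2 fold change -2.34, SE 0.18, adjusted p = 8.74e-06). The rest of the 12 were drd-50, mct-2, glh-2, xpd-1, citk-1, mrpl-45 and arid-1, with log2 fold changes from -2.44 to -2.23.

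Some genes were read in a single group only. In 16 genes no count fell in any wild-type library while each library labelled sams-1 held at least 10, and the reverse held for 1 gene, igdb-1. clec-17, a C-type lectin, was at 15.9, 16.7 and 20.8 CPM in the sams-1-labelled libraries, at least 110.5-fold above the level that 3 counts over the wild-type group would give. igdb-1 was at 7.69, 14.7 and 12.1 CPM in wild type and at 0 in every library labelled sams-1, at least 60.6-fold lower by the same floor. Intervals and floors of this kind cover counting error only. igdb-1, col-183 and ins-19 were the 3 genes called lower by at least 16-fold, against 357 called higher by that much. col-183 fell from 6.59, 1.82 and 6.29 CPM to 0.199, 0 and 0.158 CPM, and its exons overlap another gene, so that without strand its reads are uncertain. These genes were picked out after their values had been seen, except ins-19.

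**Figure D2:**
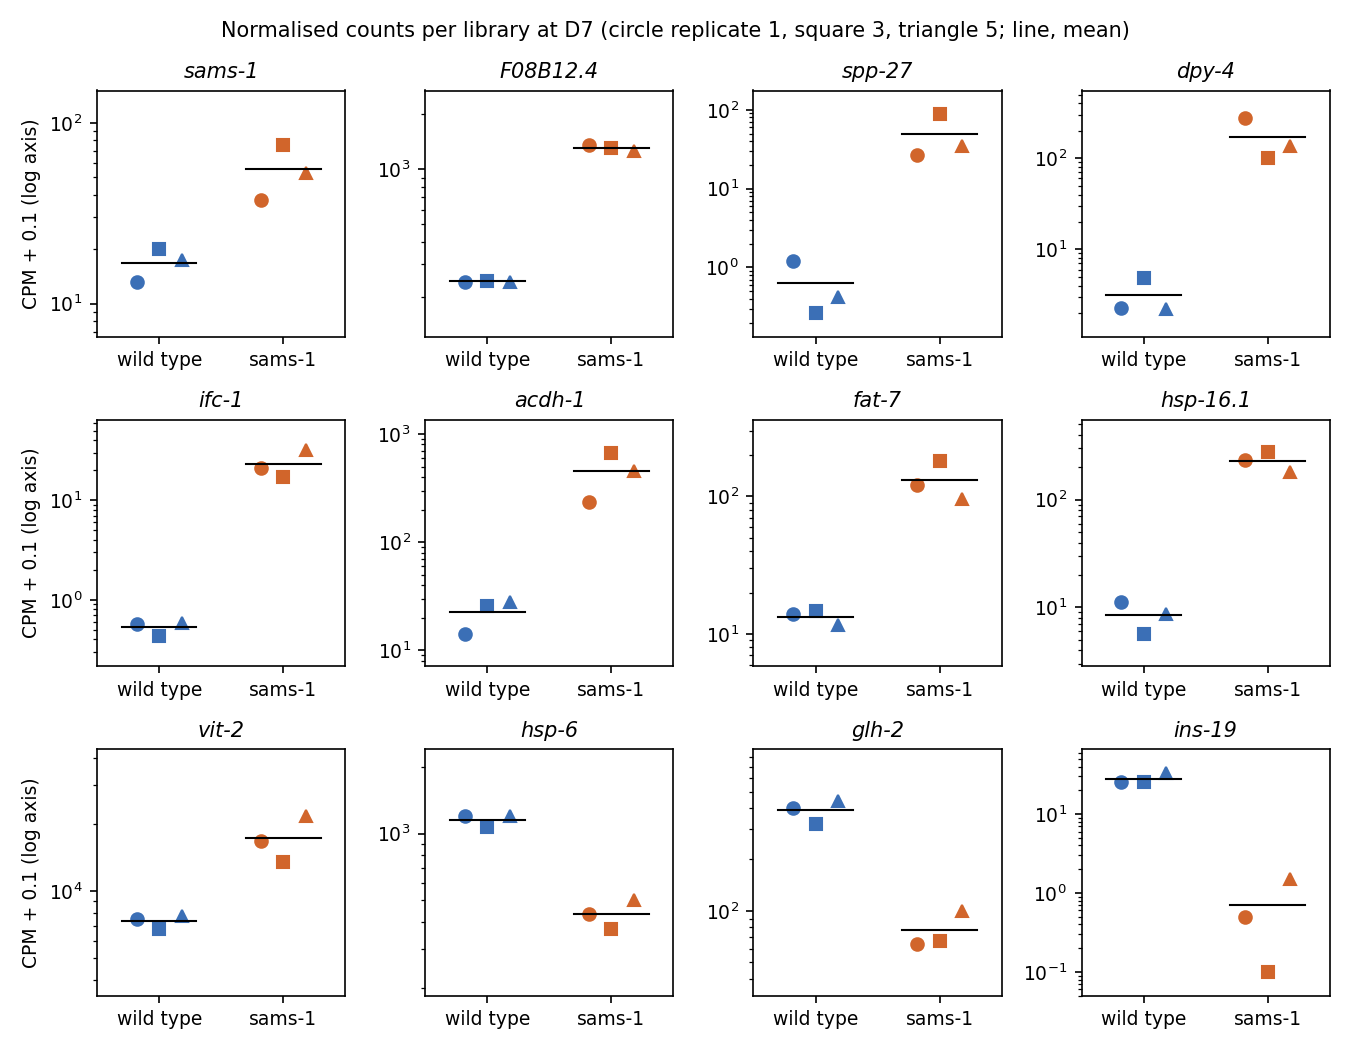
CPM of 12 genes in each D7 library, on a log axis after adding 0.1, with wild type and the libraries labelled sams-1 side by side; circles, squares and triangles are replicates 1, 3 and 5 and bars are group means. The groups do not overlap for any of the 12 genes, but this was a condition for choosing spp-27, dpy-4, ifc-1, glh-2 and ins-19. Of all genes tested, 42.3% were higher and 37.2% lower without overlap. hsp-6, glh-2 and ins-19 were lower and the others higher.

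Genes of the germ line were lower as a group. Of 36 listed markers of germ cells 35 were tested, and 31 were lower and 0 higher, with a median log2 fold change of -1.37 against 0.13 over all genes tested. glh-2, a Vasa-type helicase of the germ granule, was at 402, 323 and 442 CPM in wild type against 63.4, 66.6 and 99.8 CPM in the sams-1-labelled libraries (log2 fold change -2.34, SE 0.20, adjusted p = 1.06e-05). pgl-1, a scaffold of the same granules, fell from 754, 651 and 782 CPM to 168.1, 162 and 240.4 CPM, and glh-4 fell from 253, 245 and 283 CPM to 58.04, 55.4 and 65.9 CPM. The 3 libraries of each group lay close together for all of these genes and the groups were well apart. gld-1, a translational repressor of the meiotic germ line, had a log2 fold change of -1.73 (SE 0.18). The summed level of the germ cell markers was 8516 to 9121 CPM in wild type and 2893 to 3174 CPM in the sams-1-labelled libraries. In RNA from whole animals, fewer germ cells and less of these mRNAs per germ cell cannot be told apart, and the same holds for every tissue below.

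Oocyte and dividing-cell genes moved with them. Of 27 oocyte and eggshell genes 25 were lower and 0 higher, with a median of -1.45. cpg-1, a chondroitin proteoglycan of the eggshell, was at 4916, 5013 and 4932 CPM in wild type against 1125, 1201 and 1579 CPM, and rme-2, the yolk receptor of oocytes, was at 1217, 1255 and 1290 CPM against 291, 350.5 and 449.7 CPM. All 37 listed genes of DNA replication and mitosis were lower, among them top-2, a topoisomerase (log2 fold change -1.99, SE 0.20), and knl-1 of the kinetochore (log2 fold change -1.78, SE 0.11), with a median of -1.39. Of 16 Argonaute genes tested 12 were lower and 0 higher. hrde-1, which carries silencing through the germ line in the nucleus, fell from 1822, 1677 and 1877 CPM to 526, 569 and 575 CPM (log2 fold change -1.69, SE 0.11, adjusted p = 6.1e-06). prg-1, the Piwi protein, had a log2 fold change of -1.91, in a gene whose exons overlap another. None of these medians changed sign under the 5 other scalings. DESeq2 called 1 germ cell gene higher, and 2 Argonaute genes were higher at an unadjusted p below 0.05.

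Sperm genes took the other direction at low levels. Of 76 members 35 were tested, 29 of them only through the libraries labelled sams-1, and 27 were higher and 3 lower, the latter 1 without wild-type replicate 3, without wild-type replicate 5 or without replicate 1 labelled sams-1. The major sperm proteins, which build the sperm cytoskeleton and signal to oocytes, summed over 31 genes to 2.196, 17.8 and 8.06 CPM in wild type against 151, 220.3 and 83.8 CPM in the sams-1-labelled libraries. Their sums did not overlap, although the genes are near-identical copies and the reads of single members are uncertain. gsp-3, a sperm phosphatase, was at 0.314, 0.661 and 0 CPM against 5.17, 5.40 and 2.21 CPM. Summed over the whole sperm list the libraries overlapped, at 259 to 293.6 CPM in wild type and 265.3 to 470.9 CPM in those labelled sams-1. spe-39, which sperm share with other cells, was lower (log2 fold change -0.94).

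The yolk genes did not all move in the same direction, although their summed level was higher. vit-2, which encodes a yolk protein made in the intestine, was at 7482, 6776 and 7753 CPM in wild type against 16890, 13560 and 21770 CPM in the sams-1-labelled libraries (log2 fold change 1.25, SE 0.18, adjusted p = 0.0002), but at -0.20 with muscle genes held equal and -1.17 with intestine genes held equal. vit-6 was higher, at a log2 fold change of 1.08 (adjusted p = 0.00207), which turned to -0.38 and -1.34 under those scalings, and without wild-type replicate 3 or wild-type replicate 5 its adjusted p reached 0.0147, past the threshold. vit-3 fell from 839, 692 and 907 CPM to 454, 548 and 525 CPM. Over the 6 genes 2 were higher and 1 lower, with a median of 0.31, or -1.09 and -2.08 with muscle and intestine genes held equal. Under the TMM scaling the 6 genes summed to 27370, 23020 and 26690 CPM in wild type. In the sams-1-labelled libraries they summed to 44670, 32730 and 57110 CPM, without overlap. The vit genes share long stretches of sequence, and vit-2 and vit-3 overlap other genes, so their single levels are uncertain.

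Intestine genes other than yolk were higher. Of 17 intestine markers 15 were higher and 0 lower, with a median of 2.84, and 4 of the 17 were tested only through the libraries labelled sams-1. elt-2, the GATA factor that maintains the intestine, was at 3.77, 4.62 and 2.90 CPM in wild type against 20.3, 30.6 and 40.9 CPM in the sams-1-labelled libraries. nhx-2, a sodium-proton exchanger of the gut lumen, was at 3.29, 5.12 and 5.81 CPM against 92.02, 96.97 and 88.6 CPM (log2 fold change 4.28, SE 0.21, adjusted p = 2.74e-06), and pept-1, the peptide transporter of the same membrane, at 0.627, 5.62 and 3.71 CPM against 48.9, 69.97 and 55.99 CPM. Neither gene came near the other group in any library. act-5, the actin of the microvilli, had a log2 fold change of 2.93 (SE 0.15). ges-1, the gut esterase, did not pass, at 34.04, 21.8 and 25.3 CPM against 40.1, 38.9 and 48.7 CPM (log2 fold change 0.66, adjusted p = 0.0144, -0.77 and -1.74 with muscle and intestine genes held equal). The listed markers summed to 296.8 to 360.6 CPM in wild type and 1612 to 1976 CPM in the sams-1-labelled libraries.

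Muscle genes were higher in body wall and pharynx. Of 25 body wall muscle genes 21 were higher and 1 lower, with a median of 1.27 that became -0.17 with muscle genes held equal, as that scaling sets it, and -1.14 with intestine genes held equal. ttn-1, the titin of the worm, was at 157, 176.2 and 195 CPM in wild type against 1818, 1674 and 1827 CPM in the sams-1-labelled libraries (log2 fold change 3.33, SE 0.13, adjusted p = 1.66e-06). unc-54, the main myosin of body wall muscle, did not pass, at 288, 249.5 and 390.5 CPM against 667, 319.9 and 584 CPM (log2 fold change 0.76, adjusted p = 0.0221, -0.69 and -1.64 with muscle and intestine genes held equal). pat-3, the integrin of the attachment sites, was the member that was lower (log2 fold change -0.82). All 7 pharyngeal muscle genes were higher, with a median of 2.65. myo-1, a myosin of the pharynx, was at 17.7, 28.2 and 23.7 CPM against 176.1, 54.5 and 169.9 CPM, with replicate 3 well under the other libraries labelled sams-1, and tnc-2, the troponin C of the pharynx, had a log2 fold change of 3.85 although it overlaps a lectin gene.

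**Figure D3:**
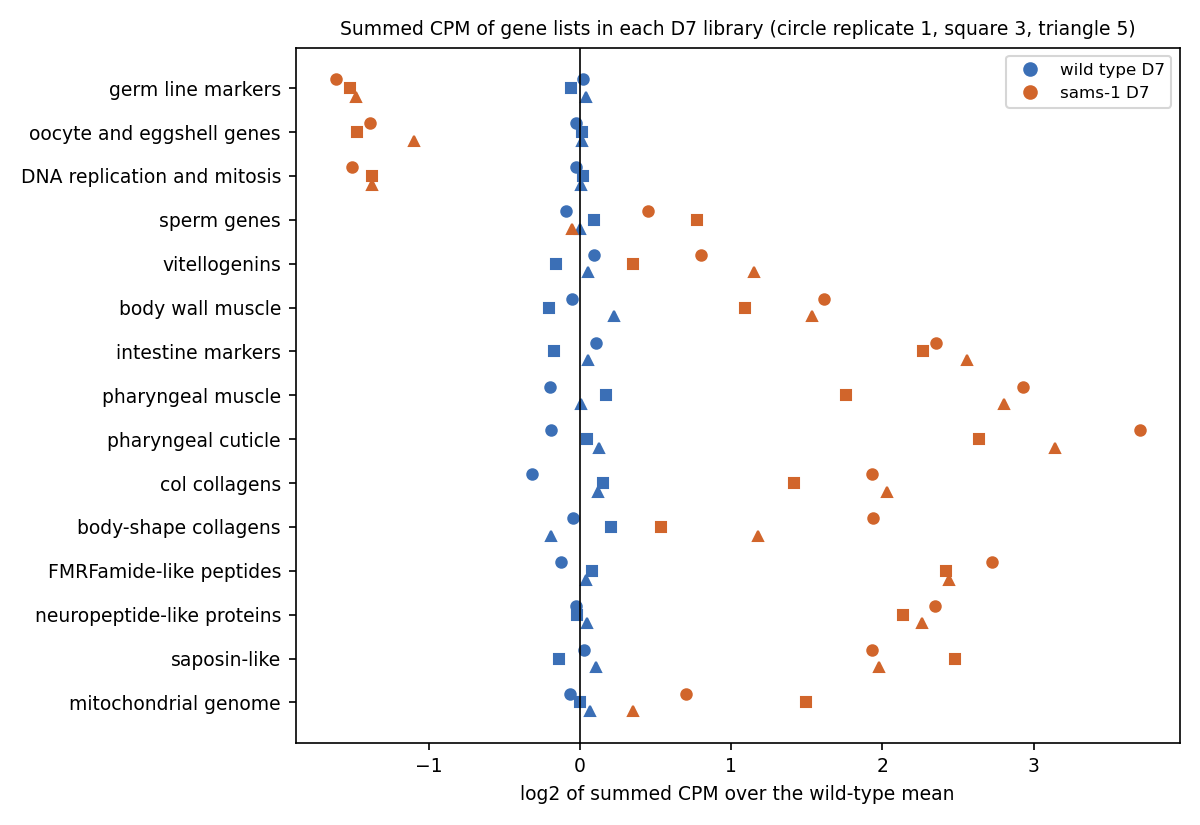
Summed CPM of 15 gene lists in each D7 library, as log2 over the wild-type mean, with a point for each library. The libraries labelled sams-1 lie below wild type for germ cell, oocyte and mitosis genes and above it for intestine, muscle, pharynx and neuropeptide genes.

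Cuticle collagens and genes of the pharyngeal cuticle were mostly higher, many of them by wide margins. Of 156 col collagens 100 were tested, 54 of them only through the libraries labelled sams-1, and 84 were higher and 2 lower, with a median of 3.09. col-144 was at 3.29, 3.96 and 1.77 CPM in wild type against 330.1, 68.8 and 174 CPM in the sams-1-labelled libraries (log2 fold change 5.98, SE 0.60, adjusted p = 2.28e-05), and col-10 at 6.43, 7.76 and 5.97 CPM against 479, 124 and 313 CPM. Replicate 1 was the highest and replicate 3 the lowest of the libraries labelled sams-1 for both, yet replicate 3 was far above wild type. The col genes are a large family of similar sequences, and the reads of single members are uncertain. Of 19 body-shape collagens of the dpy, rol, sqt and bli classes 13 were higher and 0 lower, with a median of 4.07, and 11 of the 19 were tested only through the sams-1-labelled libraries. DESeq2 called 1 lower, and 1 was lower at an unadjusted p below 0.05. The 19 summed to 341.4, 406.6 and 308.9 CPM in wild type against 1349, 511.2 and 797.9 CPM, so in replicate 3 labelled sams-1 the sum was not far above wild type. rol-6 was at 0.627, 0.826 and 0.161 CPM against 47.7, 16.42 and 23.97 CPM, and dpy-5 at 1.88, 2.31 and 0.484 CPM against 146, 58.7 and 63.1 CPM. These genes are known to be made in pulses at larval moults. All 16 genes tested of the pharyngeal cuticle, 12 of them only through the libraries labelled sams-1, were higher, with a median of 4.43, among them abu-14 (1.098, 0.991 and 0.161 CPM against 54.9, 17.6 and 27.9 CPM) and phat-7 (13.3, 16.9 and 18.4 CPM against 143.5, 83.02 and 108 CPM). Hedgehog-related genes, many of which act in the apical matrix, were higher in 19 of 39 tested (14 only through the sams-1-labelled libraries) and lower in 2, with a median of 1.3, or -0.15 and -1.08 with muscle and intestine genes held equal, and their summed level was lower, at 1316 to 1407 CPM in wild type and 922.3 to 1109 CPM in the sams-1-labelled libraries.

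Neuropeptide genes were higher nearly throughout. Of 30 FMRFamide-like peptide genes tested 29 were higher and 0 lower, with a median of 2.79, and of 47 neuropeptide-like protein genes 45 were higher and 0 lower, with a median of 2.53. Of these, 13 and 24 were tested only through the libraries labelled sams-1. flp-24 was at 6.28, 4.79 and 6.45 CPM in wild type against 62.4, 56.9 and 47.6 CPM in the sams-1-labelled libraries (log2 fold change 3.25, SE 0.21, adjusted p = 5.41e-06). flp-3 was at 5.02, 5.62 and 7.74 CPM against 76.5, 48.6 and 50.3 CPM and nlp-80 at 4.55, 3.96 and 3.71 CPM against 58.4, 66.2 and 48.3 CPM. The wild-type libraries all held these mRNAs at low levels, and no library of the other group came near them. The enzymes that process the precursors were higher as well. egl-21, a carboxypeptidase, had a log2 fold change of 2.58 (SE 0.20), and egl-3, a proprotein convertase, 2.42 (SE 0.27), or -0.01 with intestine genes held equal. Of 28 genes of synaptic release and transmitters 20 were higher and 1 lower, with a median of 1.95, or -0.46 with intestine genes held equal, and 5 of the 28 were tested only through the sams-1-labelled libraries. rab-3 of synaptic vesicles had a log2 fold change of 3.21, in a gene overlapped by others. tdc-1, which makes tyramine in neurons and in cells of the gonad sheath, was the member that was lower, at 387, 395 and 383 CPM against 118, 140.2 and 145 CPM, and it too overlaps another gene. Cilia genes were higher in 11 of 26 tested and lower in 1, with a median of 1.13, or -0.31 and -1.26 with muscle and intestine genes held equal, and 6 and 7 were higher without wild-type replicates 1 and 3. The cilia share is close to the 35.6% over all genes, and 15 of the 26 were tested only through the sams-1-labelled libraries. Of 17 insulin-like peptide genes tested, 12 of them only through the libraries labelled sams-1, 12 were higher, among them ins-7 (9.73, 11.23 and 4.68 CPM against 52.5, 66.6 and 32.02 CPM), and 1, ins-19, was lower, with a median of 2.12, or -0.27 with intestine genes held equal.

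Of the genes of defence, most saposin-like genes, C-type lectins and lysozymes were higher, but fewer of the irg and dod genes. Epidermal antimicrobial peptides are given below with other lists that went both ways. Of 20 saposin-like genes tested, 7 of them only through the sams-1-labelled libraries, 18 were higher and 0 lower, with a median of 2.28, or -0.07 with intestine genes held equal. spp-18 was at 3.14, 5.78 and 6.29 CPM in wild type against 103, 194 and 116 CPM in the sams-1-labelled libraries, with replicate 3 the highest. Of 77 C-type lectins tested, which bind sugars of microbes, 36 of them only through the sams-1-labelled libraries, 54 were higher and 5 lower, with a median of 1.88, or -0.48 with intestine genes held equal, and clec-160 was at 13.8, 9.74 and 8.87 CPM against 159, 174 and 147.2 CPM (log2 fold change 3.88, SE 0.19, adjusted p = 2.69e-06). Lysozymes were higher in 7 of 12 tested and lower in 0, led by lys-4 (8.63, 14.4 and 16.8 CPM against 179.9, 426 and 216 CPM), with a median of 0.95, or -0.41 and -1.43 with muscle and intestine genes held equal. Of 17 irg and dod genes, known from infection and from daf-2 mutants, 8 were higher and 0 lower (2 lower at an unadjusted p below 0.05, and 1 by DESeq2), and irg-1 had a log2 fold change of 3.42. Their median of 0.70 became -0.67 and -1.67 with muscle and intestine genes held equal, and without replicate 3 labelled sams-1, 3 of them were lower. Of the 12 lysozymes and the 17 irg and dod genes, 2 and 3 were tested only through the sams-1-labelled libraries, and 1 of each list only through wild type.

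Among enzymes of detoxification and digestion, most UDP-glucuronosyltransferases, glutathione S-transferases and proteases of the 2 lists below were higher. Cytochromes P450 stood near the share over all genes, and short-chain dehydrogenases are given below with lists that went both ways. UDP-glucuronosyltransferases were higher in 30 of 49 tested and lower in 1 (median 1.57, or -0.81 with intestine genes held equal), glutathione S-transferases in 21 and 0 of 27 (median 1.88, or -0.46) and cytochromes P450 in 21 and 7 of 52 (median 0.71, or -0.67 and -1.66 with muscle and intestine genes held equal), the last close to the 35.6% over all genes. Of those tested 18, 9 and 10 passed the filter only through the sams-1-labelled libraries. ugt-62 was at 45.96, 31.7 and 38.4 CPM in wild type against 333, 737 and 405 CPM in the sams-1-labelled libraries. cyp-13A5 was at 78.4, 26.1 and 29.03 CPM against 434, 513 and 457 CPM, and gst-20 at 4.71, 6.28 and 5.64 CPM against 62.2, 35.8 and 57.1 CPM. Groups did not overlap for any of the 3. Of 11 aspartyl proteases tested 10 were higher, and of 11 cysteine cathepsins 10, with 0 lower in either list and medians of 2.01 and 2.06, or -0.40 and -0.34 with intestine genes held equal. asp-1 was at 314, 307 and 553 CPM against 2964, 1744 and 4695 CPM and cpr-5 at 30.8, 24.8 and 62.6 CPM against 1099, 815 and 1319 CPM (log2 fold change 4.77, SE 0.35, adjusted p = 7.83e-06), cpr-5 being a cathepsin B of the worm. cdr-4, a cadmium-responsive gene, had a log2 fold change of 3.69 (SE 0.24), and pmp-1, an ABC transporter of peroxisomes, 3.85 (SE 0.18).

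Most genes of the methionine cycle, which makes and recycles SAM, did not pass. Of 12 genes tested 3 were higher (25.0%) and 2 lower (16.7%), under the 35.6% and 29.4% over all genes. DESeq2 gave 6 lower, and 6 were lower at an unadjusted p below 0.05. The median was -0.23, or 0.22 under upper-quartile factors and 0.04 under library totals. sams-3 and sams-4, neighbouring genes for further SAM synthases, were the lower ones, while 1 was lower without wild-type replicate 1 or 5 and 4 without replicate 3 labelled sams-1. sams-3 was at 134, 164 and 138 CPM in wild type against 59.2, 87.3 and 70.7 CPM in the sams-1-labelled libraries (log2 fold change -1.01, SE 0.16), and sams-4 at 219, 212 and 218 CPM against 154, 167 and 150.3 CPM (log2 fold change -0.46, SE 0.10). The groups were apart in both, by a small margin for sams-4, whose adjusted p of 0.00251 rose to 0.0111 at most without wild-type replicate 1 or wild-type replicate 5. The sequences of sams-3 and sams-4 are close and sams-3 overlaps another gene, so the split between them is uncertain. cth-1, a cystathionine lyase that draws sulphur out of the cycle, was higher at 18.4, 27.9 and 18.2 CPM against 32.2, 123 and 66.4 CPM (log2 fold change 1.78, adjusted p = 0.00321, or 0.0181 at most without wild-type replicate 1 or wild-type replicate 5), and was -0.62 with intestine genes held equal.

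Genes of phosphatidylcholine synthesis were higher in 8 of 12 tested and lower in 1 (2 by DESeq2), with a median of 1.28, or -0.12 and -1.11 with muscle and intestine genes held equal. Of the 12, 3 were tested only through the sams-1-labelled libraries. pmt-1 and pmt-2, the methyltransferases that use SAM to turn phosphoethanolamine into phosphocholine, were at 88.3, 81.1 and 106 CPM against 188, 191 and 212 CPM and at 44.4, 41.5 and 42.3 CPM against 116, 132 and 103.6 CPM. All libraries labelled sams-1 lay above wild type in both (log2 fold change 1.10, or -0.30 and -1.29 with muscle and intestine genes held equal, and 1.45, or -0.93 with intestine genes held equal). cept-1, which joins the choline head group to diacylglycerol, had a log2 fold change of 2.53 (SE 0.25).

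Fatty acid genes were higher at several steps. fat-7 (V:7151353-7153146), a desaturase that makes oleate from stearate, was at 13.8, 14.5 and 11.6 CPM in wild type against 121, 179 and 95.3 CPM in the sams-1-labelled libraries (log2 fold change 3.30, SE 0.25, adjusted p = 7.99e-06). fat-2, a desaturase that acts on oleate, was at 658, 592 and 575 CPM against 2094, 2258 and 2516 CPM (log2 fold change 1.91, or -0.49 with intestine genes held equal). Both were apart from wild type in every library. Of 15 genes of fatty acid synthesis and desaturation tested 11 were higher and 0 lower, with 2 lower at an unadjusted p below 0.05 and 1 by DESeq2, and the median was 1.55, or -0.83 with intestine genes held equal. elo-5 and elo-6, elongases of branched-chain fatty acids, had log2 fold changes of 3.23 and 2.99, with replicate 3 the highest in both at 506 and 601 CPM, and elo-5 overlaps another gene. nhr-80, a nuclear receptor that drives the desaturases, was higher, at a log2 fold change of 1.65, or -0.75 with intestine genes held equal.

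Genes of fatty acid binding, activation and peroxisomal oxidation were mostly higher, while acyl-CoA dehydrogenases were higher in 3 and lower in 2 of 10 tested, with a median of 0.08, and lipases are given below with other lists that went both ways. Fatty acid binding proteins were higher in 7 of 9 and lower in 1, with a median of 2.12, or -0.28 with intestine genes held equal, and lbp-6, which overlaps mec-6, had a log2 fold change of 2.60. Of 16 peroxisomal genes of beta-oxidation 14 were higher and 0 lower (1 lower at an unadjusted p below 0.05, and 1 by DESeq2), with a median of 1.77, or -0.62 with intestine genes held equal, and acox-1.5, an acyl-CoA oxidase, was at 13.02, 13.9 and 24.5 CPM against 106, 99.7 and 109.9 CPM. Acyl-CoA synthetases were higher in 11 of 17 and lower in 2, with 6 higher without wild-type replicate 3, 4 lower without replicate 3 labelled sams-1, and a median of 1.31, or -0.07 and -1.08 with muscle and intestine genes held equal. The summed level of the synthetases was lower, at 2392 to 2499 CPM in wild type and 1689 to 1874 CPM in the sams-1-labelled libraries. Of the binding, peroxisomal and synthetase genes tested, 1, 2 and 4 passed the filter only through the sams-1-labelled libraries. acs-2, which feeds mitochondrial oxidation on fasting, was at 2.98, 6.28 and 4.68 CPM against 35.4, 63.9 and 72.1 CPM.

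Of the routes of propionate breakdown, the shunt was mostly higher, while 5 of 6 genes of the B12-dependent route did not pass. The shares were 80.0% higher for the shunt and 16.7% lower for the B12-dependent route, against 35.6% higher and 29.4% lower over all genes. acdh-1 (I:6497436-6499560), the acyl-CoA dehydrogenase at the head of the shunt that works without vitamin B12, was at 14.1, 25.3 and 27.7 CPM in wild type against 237, 674 and 459 CPM in the sams-1-labelled libraries (log2 fold change 4.35, SE 0.40, adjusted p = 1.42e-05). hphd-1, a later step, was at 19.6, 17.2 and 21.1 CPM against 59.6, 92.02 and 77.9 CPM (log2 fold change 1.98, or -0.40 with intestine genes held equal). Every library labelled sams-1 was above wild type for both. Of the 5 shunt genes 4 were higher and 0 lower, with a median of 0.99, or -0.47 and -1.43 with muscle and intestine genes held equal. Of the 6 genes of the B12-dependent route 0 were higher and 1 lower, mmcm-1, the methylmalonyl-CoA mutase (log2 fold change -0.82, SE 0.15), and 3 were lower without replicate 3 labelled sams-1, and 2 by DESeq2. The median of this list was -0.22, or 0.24 with upper-quartile factors and 0.05 under library totals. nhr-68, a nuclear receptor known to switch on the shunt, was at 3.77, 3.798 and 4.03 CPM against 28.02, 68.2 and 32.02 CPM.

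Several lists of nuclear genes for mitochondria held more lower than higher members, while genes of the mitochondrial genome were mostly higher. Of 70 mitochondrial ribosomal proteins 30 were lower and 0 higher, with a median of -0.52, and without replicate 3 labelled sams-1, 53 were lower. mrpl-45 was at 78.3, 72.5 and 88.9 CPM in wild type against 18.7, 10.6 and 21.1 CPM in the sams-1-labelled libraries (log2 fold change -2.23, SE 0.24, adjusted p = 2.92e-05). Of 20 genes of the citric acid cycle 10 were lower and 1 higher, with a median of -0.48, and 4 were higher without replicate 3 labelled sams-1. sdha-2, a flavoprotein subunit of succinate dehydrogenase, was at 188, 181 and 194 CPM against 46.7, 66.4 and 60.7 CPM. The list of chaperones and proteases of the matrix was lower in 8 of 10 and higher in 0, with a median of -0.94. hsp-6, the matrix Hsp70 that reports the mitochondrial unfolded protein response, was at 1196, 1069 and 1202 CPM against 432, 369 and 503 CPM (log2 fold change -1.41, SE 0.14, adjusted p = 2e-05), and hsp-60, the chaperonin, had a log2 fold change of -1.67 (SE 0.13). tomm-20 of the outer membrane import pore was lower, at a log2 fold change of -0.87, and the electron transfer flavoprotein gene F23C8.5 did not pass (log2 fold change -0.18, adjusted p = 0.159, or 0.28 with upper-quartile factors and 0.10 under library totals). Of 12 genes of the mitochondrial genome 9 were higher and 0 lower, with a median of 1.16, or -0.18 and -1.20 with muscle and intestine genes held equal. Their sum was 7341 to 8041 CPM in wild type against 12510, 21620 and 9771 CPM in the sams-1-labelled libraries, highest in replicate 3, and 5 were higher without any 1 of the wild-type replicates.

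Glycolysis and translation were mixed. gpd-4, a glyceraldehyde-3-phosphate dehydrogenase, fell from 218, 225 and 229 CPM in wild type to 53.9, 55.4 and 61.5 CPM in the sams-1-labelled libraries, and aldo-1, an aldolase, was at 43.8, 37.6 and 40 CPM against 190.2, 109 and 226 CPM (log2 fold change 2.11, or -0.31 with intestine genes held equal). Over 23 genes of glycolysis and gluconeogenesis tested 5 were higher and 8 lower, the first of these well under the 35.6% over all genes, with a median of -0.34, or 0.11 with upper-quartile factors. Few cytosolic ribosomal proteins passed, with 5 higher and 4 lower of 79 tested and a median of 0.06, or -1.35 and -2.34 with muscle and intestine genes held equal. The higher ones numbered 2 without any wild-type replicate and 8 without replicate 3 labelled sams-1, and DESeq2 called 2 higher and 10 lower. An exception was rpl-11.2, at 121.6, 121.6 and 136 CPM against 749, 609.7 and 704 CPM (log2 fold change 2.44, SE 0.13, adjusted p = 3.27e-06). Of 32 aminoacyl-tRNA synthetases 26 were lower and 0 higher (median -0.85), and of 33 proteasome subunits 30 were lower and 0 higher (median -0.79). kars-1, the lysyl-tRNA synthetase, was at 477, 492 and 535 CPM against 199.9, 193 and 213 CPM, and rpn-2 of the regulatory particle of the proteasome at 469.8, 442 and 491 CPM against 172, 157 and 213 CPM.

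Heat shock genes went both ways. hsp-16.1 (V:9087293-9087782), a small heat shock protein, was at 11.1, 5.62 and 8.55 CPM in wild type against 236, 274 and 182 CPM in the sams-1-labelled libraries (log2 fold change 4.76, SE 0.25, adjusted p = 3.37e-06). sip-1, a small heat shock protein of oocytes and embryos, fell from 6680, 6959 and 6754 CPM to 2484, 2649 and 2798 CPM. The groups were far apart for both. hsp-16.1 has a near-identical copy and sip-1 overlaps another gene, so their reads are uncertain. hsf-1, the heat shock factor, was lower, at 217, 229 and 233 CPM against 111, 109 and 121 CPM (adjusted p = 3.2e-05). The list held 8 higher and 6 lower of 17 tested, with a median of 0.00 that ranged from -2.37 to 0.45 under the other scalings, and 3 were lower without wild-type replicate 5. Of the 17, 4 were tested only through the sams-1-labelled libraries. Of 26 autophagy genes 7 were higher and 6 lower, both under the shares over all genes, with a median of -0.29, or 0.17 with upper-quartile factors. sqst-1, the p62 receptor of selective autophagy, was at 137, 117 and 127 CPM against 383, 310 and 513 CPM (log2 fold change 1.66, or -0.76 with intestine genes held equal). hlh-30, the TFEB factor, was higher, at a log2 fold change of 0.94, or -0.52 and -1.48 with muscle and intestine genes held equal, pha-4, a FoxA factor, was higher, at a log2 fold change of 2.80, and atg-9 was lower, at a log2 fold change of -1.51. msra-1, a methionine sulphoxide reductase that overlaps another gene, was at 10.5, 11.40 and 10.2 CPM against 79.7, 270 and 127 CPM.

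Among regulators, nuclear hormone receptors were mostly higher and SET domain genes mostly lower. Of 163 nuclear hormone receptor genes tested 110 were higher and 6 lower, 50 of the tested ones passing the filter only through the libraries labelled sams-1, with a median of 1.70, or -0.69 with intestine genes held equal. nhr-8, which acts in sterol metabolism, had a log2 fold change of 3.12 but overlaps other genes, and nhr-23, a receptor of the moulting cycle, was lower, at 69.7, 70.5 and 68.7 CPM in wild type against 26.04, 22.1 and 24.9 CPM in the sams-1-labelled libraries. daf-12, the receptor of dafachronic acids, was at 20.4, 21.1 and 17.6 CPM against 89.6, 54.7 and 61.04 CPM (log2 fold change 1.80, or -0.60 with intestine genes held equal). Of 22 bZIP genes 10 were higher and 3 lower (5 lower by DESeq2), with a median of 0.70, or -0.76 and -1.70 with muscle and intestine genes held equal. zip-10 had a log2 fold change of 3.72, and the AP-1 genes jun-1 and fos-1 1.90 and 1.25, or -0.50 for jun-1 with intestine genes held equal and -0.23 and -1.16 for fos-1 with muscle and intestine genes held equal. The adjusted p of fos-1, 0.00146, was 0.01003 without wild-type replicate 3, and all 3 of these genes overlap others.

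Of 33 SET domain genes tested 25 were lower and 2 higher, with a median of -1.07. set-26, a close relative of set-9, was at 301, 275 and 296 CPM in wild type against 74.7, 40.5 and 98.3 CPM in the sams-1-labelled libraries, with replicate 3 the lowest, and set-30 went the other way, at 3.77, 3.14 and 5.16 CPM against 47.5, 38.02 and 35.3 CPM. Of 17 genes of the insulin receptor pathway 10 were lower and 2 higher, with a median of -0.94. daf-2, the receptor, was lower, at a log2 fold change of -1.21, sgk-1, a kinase of the pathway, was higher, at a log2 fold change of 2.26, or -0.13 with intestine genes held equal, and daf-16, the FOXO factor, did not pass (log2 fold change 0.17, adjusted p = 0.151, or -1.25 and -2.23 with muscle and intestine genes held equal). Genes often used as loading references were also read. ama-1, the large subunit of RNA polymerase II, was at 392, 404 and 429.8 CPM against 133, 96.1 and 179 CPM (log2 fold change -1.58, adjusted p = 7.38e-05), and act-1, an actin, did not pass, at 578, 582 and 653 CPM against 448, 239 and 494 CPM (log2 fold change -0.62, adjusted p = 0.0319).

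Other gene families held more higher than lower members. Transthyretin-related genes, a secreted family of the worm, were higher in 35 of 43 tested and lower in 1 (median 1.71, or -0.66 with intestine genes held equal, 9 tested only through the sams-1-labelled libraries), with ttr-21 at 8.47, 7.43 and 5.48 CPM in wild type against 46.5, 42.5 and 31.6 CPM in the sams-1-labelled libraries. ABC transporters were higher in 21 of 34 and lower in 5 (median 1.55, or -0.85), and pgp-1, a P-glycoprotein, was at 31.5, 11.6 and 16.45 CPM against 205, 241 and 224 CPM (log2 fold change 3.49, SE 0.30). Groups were well apart for both genes. F-box genes, which guide proteins to ubiquitin ligases, were higher in 62 of 125 tested and lower in 17 (median 1.52, or -0.88), 48 of the 125 being tested only through the sams-1-labelled libraries and 10 only through wild type, with fbxa-55 at 0.627, 1.98 and 1.29 CPM against 22.9, 38.02 and 24.4 CPM. Their lower members numbered 28 without replicate 3 labelled sams-1 and 9 to 11 without wild-type replicates 1 or 3 or replicates 1 or 5 labelled sams-1. Astacin proteases were higher in 11 of 17 tested and lower in 1 (median 2.13, or -0.26), and 10 of the 17 were tested only through the sams-1-labelled libraries. Chemoreceptor genes were almost all too weak to test: of 1298, 19 were tested, 14 of these only through the sams-1-labelled libraries, and 14 were higher and 1 lower, with srr-4 at 7.22, 4.79 and 4.36 CPM against 38.96, 25.6 and 43.4 CPM. None of the 3 coelomocyte markers was tested, and their summed level was at most 4.77 CPM.

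A further set of lists went both ways, and several lay near or under the 35.6% higher and 29.4% lower over all genes. Homeobox genes stood at 34.3% higher and 31.4% lower, and genes of oxidative stress at 33.3% and 33.3%. Genes of endoplasmic reticulum stress stood at 27.8% and 27.8%, and short-chain dehydrogenases at 30.8% and 19.2%. Only the lipase and metallothionein lists below exceeded the share higher, and only the homeobox, oxidative stress and histone lists the share lower. Homeobox genes were higher in 12 of 35 tested (10 of the 35 only through the sams-1-labelled libraries) and lower in 11, and the former numbered 5, 6 and 7 without wild-type replicate 1, wild-type replicate 5 and replicate 5 labelled sams-1. ceh-92 fell from 94.6, 77.5 and 95.6 CPM in wild type to 24.4, 17.6 and 30.3 CPM in the sams-1-labelled libraries, with no overlap. Short-chain dehydrogenases were higher in 8 and lower in 5 of 26, among them dhs-24, which fell from 97.3, 97.9 and 106 CPM to 33.4, 29.02 and 35.8 CPM, and the lower ones numbered 2 or 3 without any wild-type replicate or replicate 1 labelled sams-1 and 8 without replicate 3 labelled sams-1. Lipase and lipid droplet genes were higher in 5 and lower in 1 of 10, the latter atgl-1, the main triglyceride lipase, at 154, 148 and 168.4 CPM against 91.4, 85.3 and 85.96 CPM, and 2 or 3 were higher without any wild-type replicate or without replicate 5 labelled sams-1. Genes of endoplasmic reticulum stress were higher in 5 and lower in 5 of 18, but 0 were higher without wild-type replicate 3 or wild-type replicate 5. Genes of oxidative stress were higher in 6 and lower in 6 of 18. Lipid regulators were higher in 1 and lower in 2 of 7, epidermal antimicrobial peptides in 4 and 1 of 15 (2 higher without wild-type replicate 1, wild-type replicate 3 or replicate 1 labelled sams-1), and metallothionein and cdr genes in 4 and 0 of 7. Of the 15 epidermal peptides 4 were tested only through the sams-1-labelled libraries and 1 only through wild type. Histones were lower in 7 and higher in 3 of 17, with 4 lower without wild-type replicate 3, and 5 higher when any library except replicate 1 of the sams-1 label was dropped. Of the 17 histones, 4 were tested only through wild type. The medians of these lists and of the acyl-CoA dehydrogenases lay between -0.68 and 0.76, and all but that of the histones changed sign under at least 1 other scaling.

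**Figure D4:**
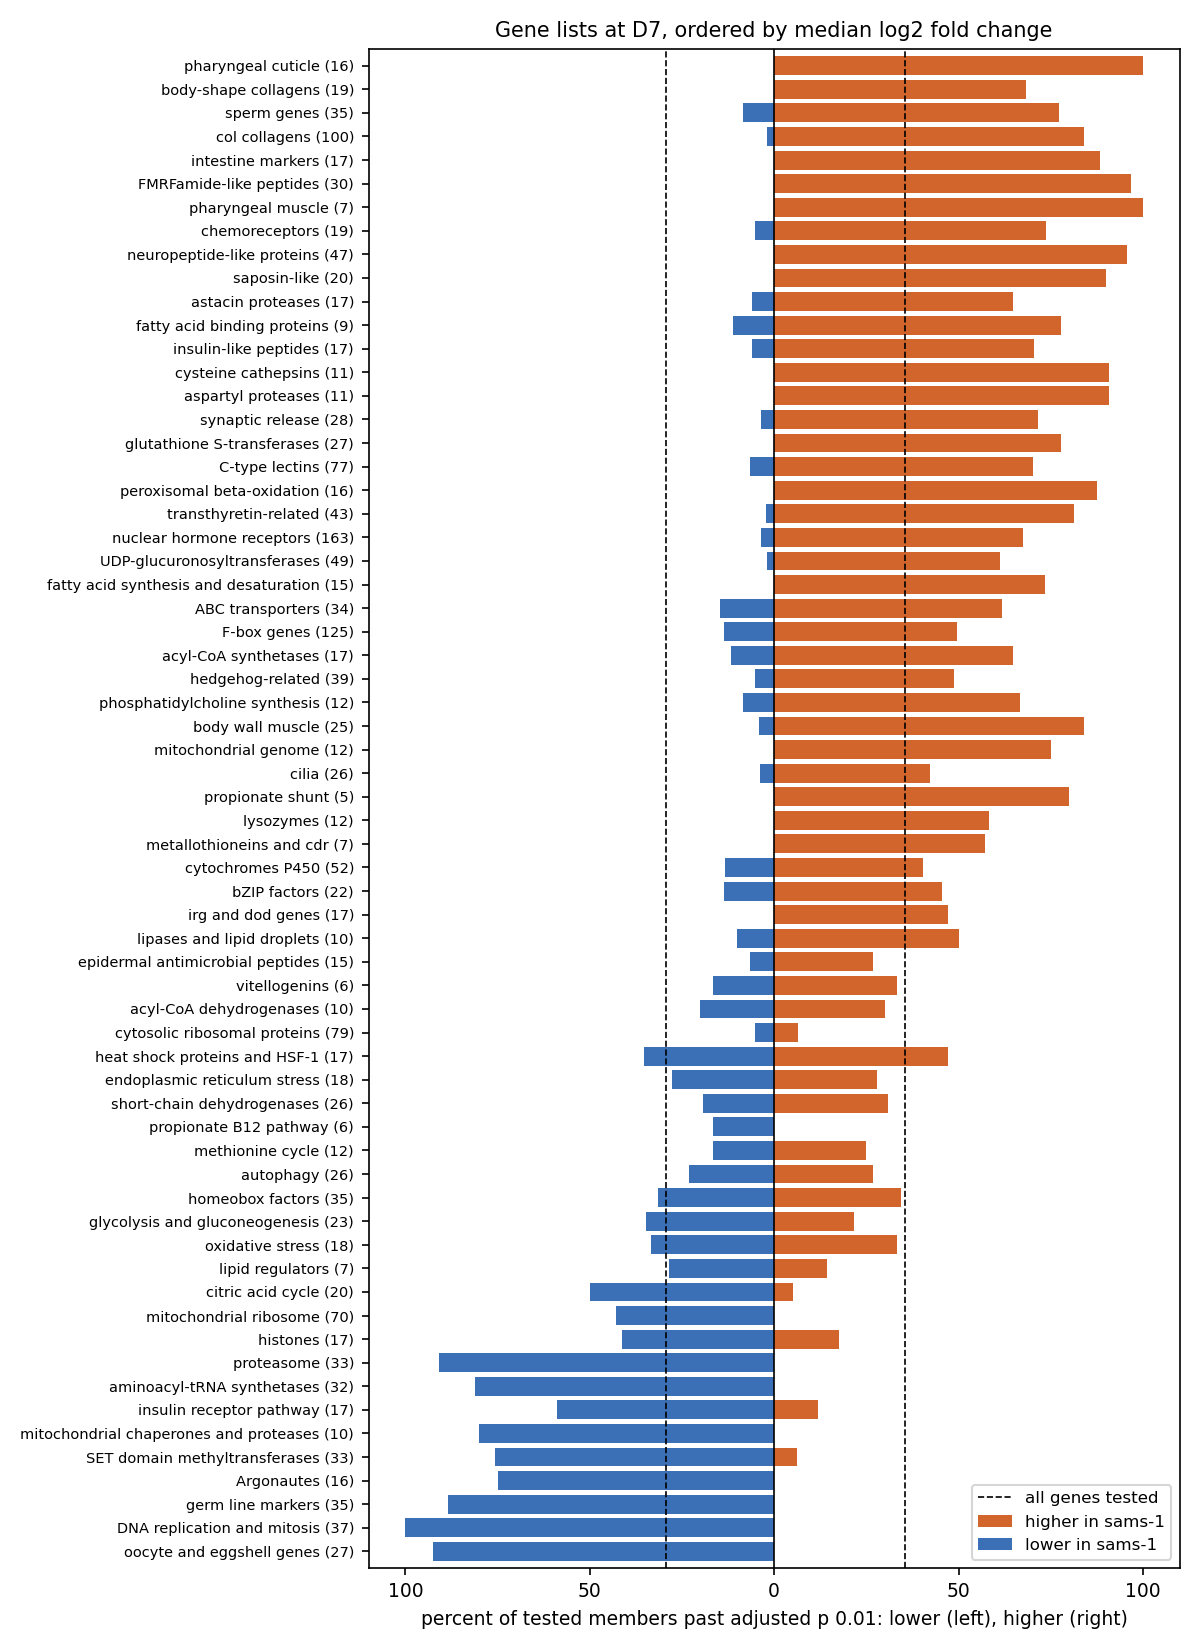
Percent of tested members at an adjusted p under 0.01 for each gene list with 5 or more members tested, higher in the sams-1-labelled libraries to the right and lower to the left, with dashed lines at 35.6% and 29.4%, the shares over all 12242 genes. Neuropeptide, pharyngeal and intestine lists lie far to the right of the dashed line, and mitosis, proteasome and oocyte lists far to the left.

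The most abundant mRNAs changed rank. On the TPM scale, which corrects for transcript length and so allows genes to be compared, sip-1 was first in wild type at a mean of 13440 TPM and ninth in the sams-1-labelled libraries at 5022 TPM. F08B12.4 was first in the sams-1-labelled libraries, at 14150 TPM (SD 1317, n = 3) against 2477 TPM in wild type, with counts of 241, 244 and 241 CPM against 1351, 1299 and 1254 CPM and a log2 fold change of 2.43 (SE 0.11). It was level within each group. dct-16 followed at 10280 TPM (log2 fold change 2.40), then spp-14 of the saposin-like family at 9740 TPM (2.31, or -0.07 with intestine genes held equal) and far-2, a fatty acid and retinol binding protein, at 8827 TPM (1.45, or -0.95 with intestine genes held equal). These genes were taken by rank after their values had been seen.

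Differences were unevenly spread over the chromosomes. On X 48.0% of 1737 genes tested were called higher and 6.22% lower, with a median log2 fold change of 1.11, and on V 45.1% and 11.9% of 2364, with a median of 0.97. On I, II and III the shares called higher were 21.3%, 29.4% and 23.5%, and those called lower 22.5%, 19.7% and 20.5%, with medians of -0.39, -0.19 and -0.37. IV lay between, at 33.3% and 16.98%, and of 14 mitochondrial genes 64.3% were called higher. As background, germ cell genes are scarce on X, and large families of defence and chemoreceptor genes lie on V. The shares are a description, and neighbouring genes are not independent.

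**Figure D5:**
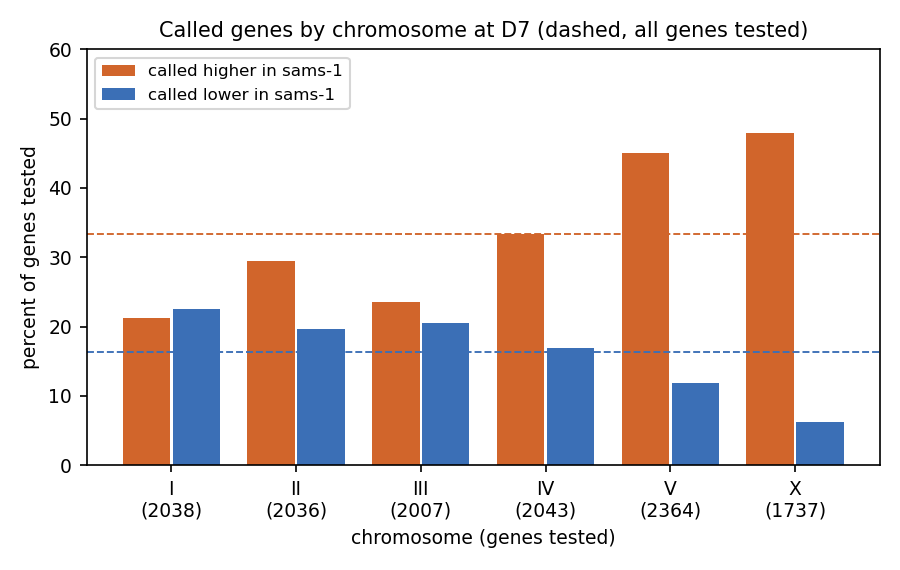
Percent of the genes tested on each chromosome that were called higher (orange) or lower (blue) in the sams-1-labelled libraries at D7, by 2-fold or more. Among the nuclear chromosomes X and V have the largest shares called higher, 48.0% and 45.1%, and X the smallest share called lower, 6.22%.

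The difference at D7 was set against that at D1 by the interaction of label and age over all 12 libraries. It passed for 4 of 14193 genes (0.0282%) at an adjusted p under 0.01. The count was 1987 without replicate 1 labelled sams-1 at D1, 40 without wild-type replicate 1 at D1 and 1 without wild-type replicate 3 at D1, and 1 or 2 without any library of D7, so it rests on which libraries are used and does not show that the differences at the 2 ages were alike. ifc-1 was among the 4, at 17.1, 18.5 and 22.2 CPM in wild type, against 24.8, 37.8 and 49.05 CPM in the sams-1-labelled libraries at D1, where it was read in both groups, and nearly absent from wild type at D7 (interaction 4.47, SE 0.53, adjusted p = 0.00669, edgeR). Of the genes tested next, pud-3 and pud-1.2, of a family known to be under daf-2, had interactions of 7.73 (adjusted p = 0.0104) and 6.10 (adjusted p = 0.0121) and did not pass.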

How the data were processed

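RNA of whole animals had been read in 12 libraries. Per the submitters' processing notes the authors used Trimmomatic 0.39, STAR 2.710b and RSEM 1.3.3, the last of which estimated the expected counts per gene, with the ws245 annotation and a Nextflow pipeline per the study's methods. RSEM also gave the deposited TPM, scaled by transcript length. The authors' own differential tests with DESeq2 1.38 were not used here. The strand setting of the counting is not given in the sources used here.

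Expected counts of the 6 D7 libraries were rounded to whole numbers and tested with edgeR 4.0.16 in R 4.3.3 (quasi-likelihood F test, TMM factors, filterByExpr, which kept genes above about 1.588 CPM in 3 libraries, 4 residual degrees of freedom), with Benjamini-Hochberg adjustment over all genes tested. CPM use the TMM factors. The interaction of label and age used all 12 libraries (8 residual degrees of freedom). DESeq2 1.42.0 and limma 3.58.1 on log2(TPM + 1) of the deposited TPM were run as other tools, beside 5 other scalings, other filters and fits without each library. The fits were tested on simulated data in which few genes differed, as many higher as lower. The D7 groups differed in most genes and unevenly, so that check does not cover the scaling. Tables and figures were made with Python 3.11.15, pandas 2.3.3 and matplotlib 3.10.9.

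The comparison, the 65 gene lists (written by symbol from general knowledge, 6 symbols unmatched) and the rules were chosen with earlier results of these data known. Genes named were sams-1, the 12 with the largest change in each direction, up to 4 members with the largest change per list, genes that the study names, and genes leading the interaction. The 12 in each direction had to be called, with a mean of at least 10 CPM and a symbol of letters and a number. They also had to have no exon overlap with another gene and no overlap between the groups. Others were chosen after their values were seen: F08B12.4, dct-16, spp-14, far-2, sip-1, igdb-1, col-183, clec-17, elt-2, act-5, ges-1, gld-1, rme-2, tdc-1, egl-3, unc-54, pat-3, sams-4, hsf-1, daf-2, daf-16, nhr-23, fat-2 and gsp-3. Gene places are from WBcel235 (Ensembl release 115), which holds 46917 of the 46925 identifiers. Promoter motifs were not analysed.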

Additional observations from a re-analysis of the deposited data

Results flagged for a closer look

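Each of 4 genes had a difference at D7 that departed from its difference at D1 by the interaction test over 12 libraries (edgeR, adjusted p under 0.01). ifc-1 had an interaction of 4.47 on the log2 scale (SE 0.53, adjusted p = 0.00669). F55G11.4 had -5.15 (SE 0.56, adjusted p = 0.00508): at D7 it fell from 232, 234.7 and 120.5 CPM in wild type to 21.1, 15.5 and 23.7 CPM under the sams-1 label, and at D1 it was at 2.42, 1.21 and 2.89 CPM against 3.87, 9.29 and 6.72 CPM. Y51H7C.1 had -9.13 (SE 0.72, adjusted p = 0.000285), with 42.7, 42.3 and 50.2 CPM against 2.58, 4.28 and 9.15 CPM at D7, and 3.18, 1.04 and 3.11 CPM against 113, 91.7 and 212 CPM at D1. All libraries of the groups lay apart, and in opposite directions at the 2 ages. The pseudogene WBGene00044439, on chromosome II close to Y51H7C.1, had 4.43 (SE 0.53, adjusted p = 0.00669), with 42.7, 32.2 and 49.5 CPM against 21.7, 18.7 and 34.7 CPM at D7 and 115.3, 155 and 96.5 CPM against 4.14, 3.04 and 1.25 CPM at D1. F55G11.4 overlaps a small RNA gene, and without strand its reads are uncertain.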

How the results depend on the processing

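With body wall muscle genes held equal, 1230 genes were called higher and 6452 lower, and with intestine genes held equal 310 and 8084. Upper-quartile factors gave 619 genes lower and library totals 1064. Without each replicate in turn 3500 to 4453 genes were higher and 1956 to 2297 lower. With the replicate number as a block, 4036 genes were higher and 2051 lower. Deviations from the group means were weakly correlated between same-numbered libraries (r from 0.02 to 0.051) and between the others (r from -0.084 to 0.037). With 3 libraries a group, these values cannot settle whether the numbers pair the libraries. The interaction passed for 10 genes with the block, 9 with DESeq2 size factors, 31 without a filter on low counts, and 1 to 1987 without each replicate in turn, of which 1987 without replicate 1 labelled sams-1 at D1, 40 and 13 without wild-type replicates 1 and 5 at D1, and 1 or 2 without any of the D7 libraries.

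Log2 fold changes reversed with muscle and with intestine genes held equal for vit-2 (-0.20, -1.17), vit-6 (-0.38, -1.34), unc-54 (-0.69, -1.64), ges-1 (-0.77, -1.74), pmt-1 (-0.30, -1.29), hlh-30 (-0.52, -1.48), fos-1 (-0.23, -1.16) and daf-16 (-1.25, -2.23). They reversed with intestine genes held equal only, among the alternatives run, for sams-1 (-0.67), egl-3 (-0.01), cth-1 (-0.62), pmt-2 (-0.93), fat-2 (-0.49), nhr-80 (-0.75), hphd-1 (-0.40), aldo-1 (-0.31), sqst-1 (-0.76), jun-1 (-0.50), daf-12 (-0.60), sgk-1 (-0.13), spp-14 (-0.07) and far-2 (-0.95). F23C8.5, which did not pass, changed sign under upper-quartile factors (0.28) and library totals (0.10). These scalings assume that the tissue's share of RNA was equal, and which assumption holds was not tested. Of the other values of named genes under an alternative 2209 stayed on their side of the threshold, 64 lost the call and 20 gained it. Of the counts, those over the gene lists included, 1831 stayed within 1.5 times and 466 moved. With 3 libraries a group and 4 residual degrees of freedom, and with the shallowest library at 3939023 counts, genes of a few CPM are poorly measured.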
